A study of Mus musculus with 9 samples.

Results

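Adora2a, Penk, Tac1, Ppp1r1b, Rarb, Ebf1 and Rgs9 are 7 genes of striatal projection neurons, and their levels were followed library by library in newborn mouse cortex. They were taken by gene symbol from a table of 24624 genes, and all 7 passed the filter on low values. RNA from dissected cerebral cortex was sequenced at postnatal day 0 from 9 mice, with 1 library per mouse. The 3 Fezf2+/+ mice were wild type. The 4 Fezf2-/- mice carried a null allele with a reporter knock-in (PLAP, an alkaline phosphatase) under the Fezf2 promoter. The 2 Fezf2-/-; Fezf2-EnR mice carried the same null alleles plus a transgene, built in a bacterial artificial chromosome around Fezf2, for a fusion protein in which the engrailed repressor domain is joined to the part of FEZF2 that binds DNA. The transgene came from a single transgenic line. Libraries are named as in the sample labels. Fezf2+/+ libraries are bc201, bc202 and bc203, Fezf2-/- libraries are bc204 to bc207, and Fezf2-/-; Fezf2-EnR libraries are bc208 and bc209. Litter m1 gave bc201, bc202, bc205 and bc206, litter m2 gave bc203 and bc209, and litter m3 gave bc204, bc207 and bc208. Litter and genotype are thus only partly separable, and litter m3 held no Fezf2+/+ library.

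Striatal projection neurons are the GABAergic output neurons of the striatum, which lies directly beneath the cortex. They form a direct pathway, in which cells carry D1 dopamine receptors and make the tachykinin precursor Tac1, and an indirect pathway, in which cells carry D2 dopamine receptors, the adenosine receptor Adora2a and the opioid precursor Penk. Ppp1r1b encodes DARPP-32, a phosphatase regulator of dopamine signaling, and Rgs9 a regulator of G protein signaling. Rarb encodes a retinoic acid receptor, and Ebf1 a transcription factor of developing direct pathway neurons. Some of these genes are not restricted to the striatum. Ppp1r1b is also a gene of deep-layer cortical neurons, Ebf1 is also expressed in pericytes, and Penk and Tac1 are also made by subsets of cortical cells. In bulk RNA, a change in the number of cells of a type and a change in RNA per cell cannot be told apart.

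Promoter windows were at hand for 4 of the 7 genes (Tac1, Rarb, Ebf1 and Rgs9), from RefSeq on GRCm38.p6. Stretches of Rarb and Tac1 are shown, which moved together across libraries. Ebf1 moved with them and also had windows, but is not shown. Capitals mark GGTTCA and AGTTCA with any 5 bases between them, a direct repeat of the kind bound by retinoic acid receptors, in Rarb (chr14:16575507-16575535, minus strand), and TGCGTCA in Tac1 (chr6:7554811-7554878, plus strand), both 5′ to 3′.
Rarb: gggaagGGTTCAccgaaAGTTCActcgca
Tac1: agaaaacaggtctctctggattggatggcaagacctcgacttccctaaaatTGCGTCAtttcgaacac
The Rarb repeat begins 53 bases before the start used by RefSeq, and on either strand these letters occur in 2 of 32851 promoter windows (0.00609%). That share counts only this exact spelling, which was set for the search. It does not measure how common repeats bound by retinoic acid receptors are. That start lies inside the span of the Rarb gene (16430839 to 16819156), so the stretch is not upstream of the whole gene. The stretch also lies within annotated exons. The Tac1 motif begins 199 bases before the start of Tac1, and its letters occur in 2.12% of windows. CACGTG was also searched for. It begins 61 bases before the start of Tac1, outside the stretch shown, and occurs in 7.15% of windows. These are matches of letters and were not tested as binding sites.

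The table holds read counts divided by a size factor of each library, called normalized read counts here. Whole reads could be recovered, and the libraries held between 18716575 and 25127623 reads. The depth of bc204 (20011389 reads) and of bc208 (20282125 reads) lay within that range. Fezf2 matched the labels for Fezf2-/-, with a log2 fold change of -2.30 in Fezf2-/- against Fezf2+/+ (SE 0.10, limma adjusted p = 1.381e-06). Its mean was 954 in Fezf2-/-; Fezf2-EnR against 1074 in Fezf2+/+, and the table does not separate transgene reads from those of the gene itself.

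Adora2a, Penk, Tac1, Rarb and Ebf1 were each highest in bc204 and next highest in bc208. Both libraries came from litter m3, but 1 is Fezf2-/- and the other Fezf2-/-; Fezf2-EnR. The remaining library of litter m3, bc207, was not raised in these genes. This order, bc204 first and bc208 next, was found in 5 of the 7 genes, and in 2.14% of all 16197 genes tested. With Rgs9, bc204 was the highest library in 6 of the 7 genes, and in 8.82% of all genes tested. Both libraries were picked out from the levels of these same genes, so the shares describe the order and do not test it.

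Adora2a, the adenosine receptor of the indirect pathway (chromosome 10, 75316877 to 75334784, GRCm38), had normalized read counts of 83.6, 101.0 and 66.4 in Fezf2+/+, 368, 111, 79.2 and 84.7 in Fezf2-/- (bc204 to bc207), and 189 and 48.1 in Fezf2-/-; Fezf2-EnR (bc208 and bc209). All libraries other than bc204 and bc208 lay within a 2.31-fold range. The level in bc204 was 4.34 times the median of the other Fezf2-/- libraries, and the level in bc208 was 3.93 times that in bc209. Genotype groups overlapped in each comparison.

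Penk, the enkephalin precursor of the same pathway (chromosome 4, 4133531 to 4138819), had 79.4, 76.8 and 71.7 in Fezf2+/+, 337, 86.1, 46.9 and 67.3 in Fezf2-/-, and 228 and 43.7 in Fezf2-/-; Fezf2-EnR. The ratios for bc204 and bc208, taken in the same way, were 5.02 and 5.22. The Fezf2+/+ values lay close together (76.0 ± 3.95, SD, n = 3), and Fezf2-/- libraries lay on both sides of them. Exons of Penk overlap those of A830012C17Rik on the opposite strand, and the use of strand in counting is not given in the sources used here, so its counts are uncertain to that extent.

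Tac1, the precursor of substance P (chromosome 6, 7554879 to 7565834), had 33.0, 40.0 and 33.7 in Fezf2+/+, 317, 74.1, 42.7 and 39.9 in Fezf2-/-, and 170.25 and 12.02 in Fezf2-/-; Fezf2-EnR. It showed the largest ratios of the 7 genes, 7.43 for bc204 and 14.2 for bc208. The second of these rests on the low level in bc209, which came from 11 reads. Tac1 also varied most among the remaining 7 libraries, over a 6.17-fold range.

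Rarb (chromosome 14, 16430839 to 16819156) had 71.0, 77.8 and 84.3 in Fezf2+/+, 394, 109, 93.8 and 76.4 in Fezf2-/-, and 249.9 and 54.6 in Fezf2-/-; Fezf2-EnR. The ratios were 4.20 and 4.57, and the remaining 7 libraries lay within a 1.995-fold range. Rarb is 4.08 Mb from Fezf2 on chromosome 14. Its exons overlap those of Top2b and Gm48162 on the opposite strand, with the same uncertainty as for Penk.

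Ebf1 (chromosome 11, 44617317 to 45008091) had 118, 90.5 and 91.7 in Fezf2+/+, 497, 203.76, 84.4 and 59.8 in Fezf2-/-, and 274 and 62.3 in Fezf2-/-; Fezf2-EnR. The ratios were 5.89 and 4.40. A Fezf2-/- library of litter m1, bc205, stood above the rest as well. It came next below bc204 and bc208 in 5 of the 7 genes. The summed level of 8 pericyte and mural genes was also highest among Fezf2-/- libraries in bc205 (4582), where the Fezf2+/+ libraries ranged from 3220 to 4452, and its part in the Ebf1 level was not tested.

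Ppp1r1b and Rgs9 did not follow this order. Ppp1r1b (chromosome 11, 98348404 to 98357796) had 939, 1084 and 856 in Fezf2+/+, 858, 396, 431 and 272 in Fezf2-/-, and 973 and 684 in Fezf2-/-; Fezf2-EnR. In bc204 Ppp1r1b lay inside the Fezf2+/+ range, and in the other Fezf2-/- libraries it was below every Fezf2+/+ and Fezf2-/-; Fezf2-EnR library. Its exons overlap those of 1700003D09Rik on the opposite strand.

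Rgs9 (chromosome 11, 109225355 to 109298129) had 260.2, 266 and 275 in Fezf2+/+, 351, 297, 346 and 321 in Fezf2-/-, and 271 and 224 in Fezf2-/-; Fezf2-EnR. All 4 Fezf2-/- libraries lay above all others, and bc204 was only 1.09 times the median of the other Fezf2-/- libraries. Rgs9 had the narrowest spread of the 7 genes.

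**Figure D1:**
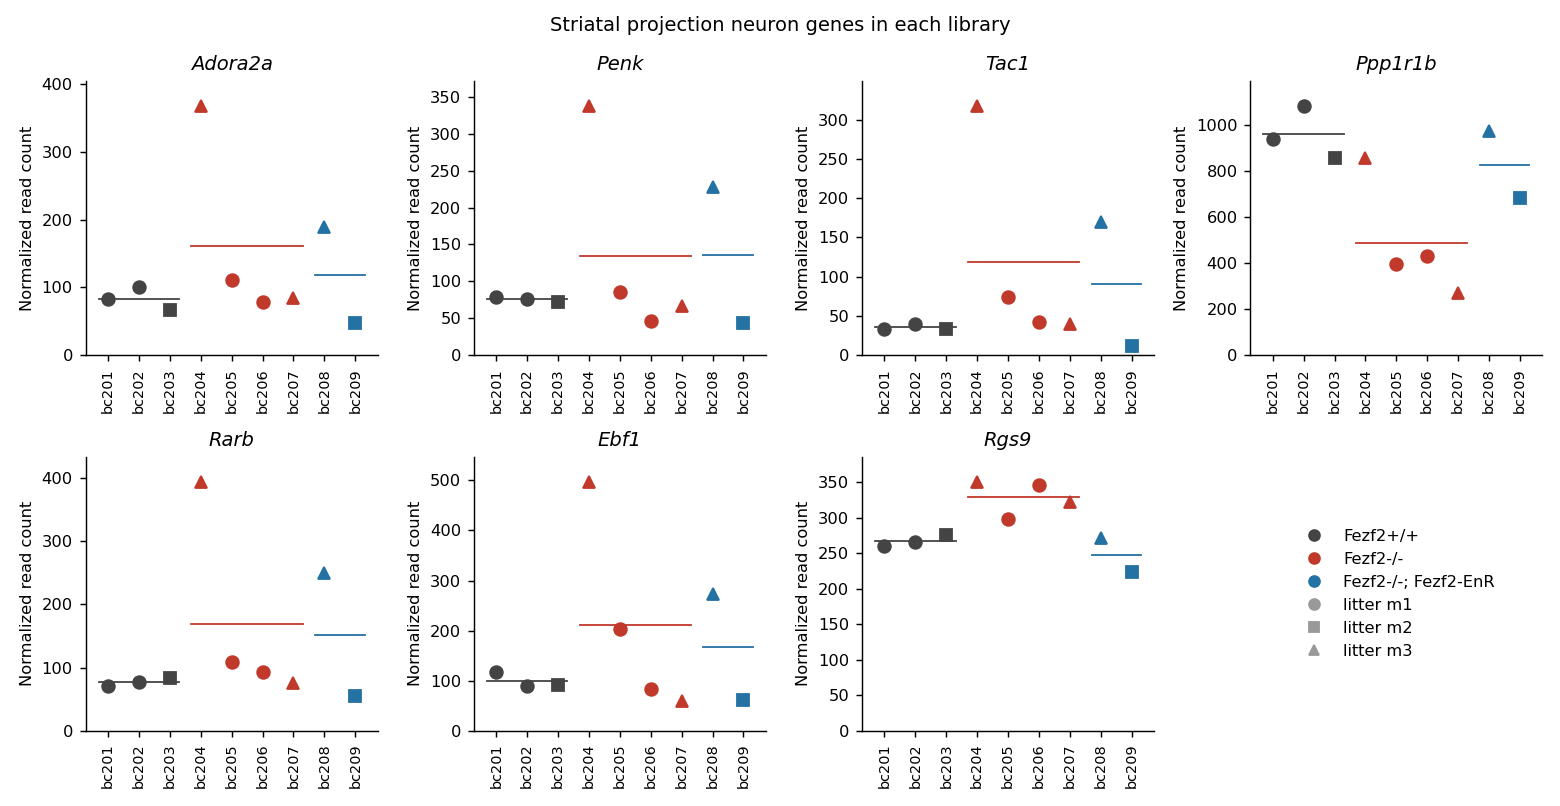
Normalized read count (linear axis from 0) of each of the 7 genes in each library, with color for genotype, marker shape for litter and a line for the genotype mean. In Adora2a, Penk, Tac1, Rarb and Ebf1 the highest points are bc204 and bc208, and in Ppp1r1b bc204 sits with the Fezf2+/+ libraries at 858 while the other Fezf2-/- libraries lie between 272 and 431.

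Per kilobase of exon, Ppp1r1b had the highest mean level in Fezf2+/+ (328 normalized reads per kb). Penk (46.5), Rgs9 (41.8), Adora2a (27.3), Rarb (14.8), Tac1 (10.5) and Ebf1 (10.3) followed. The Fezf2+/+ libraries of Tac1 (9.69 to 11.8) and Ebf1 (9.27 to 12.1) overlapped, so these neighbours could not be ordered. In bc204, Ppp1r1b (293) was still highest per kilobase, and Penk (207) and Adora2a (120.0) came above Tac1 (93.4), Rarb (74.8), Rgs9 (54.9) and Ebf1 (51.0).

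The rise in bc204 and bc208 was next set beside 23 other genes of striatal projection neurons, of which 22 had a mean of at least 10. Drd1 was not analysed here. Among these 22, bc204 was highest in 15 and bc204 and bc208 were first and second in 11. Drd2, the D2 dopamine receptor, had 24.2 to 26.2 in Fezf2+/+, 174 in bc204, 25.8 to 41.4 in the other Fezf2-/- libraries, 102 in bc208 and 15.3 in bc209. Rxrg, the retinoid X receptor that pairs with retinoic acid receptors, had 645 in bc204 and 419 in bc208, where the remaining 7 libraries ranged from 26.2 to 97.0. Both genes therefore separated bc204 and bc208 from all other libraries, as the 5 genes above did.

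Isl1, a factor of direct pathway and cholinergic neurons, reached 139 in bc204 and 38.8 in bc208, against 2.19 to 20.7 elsewhere. The 6 most abundant genes on the list moved less in ratio. In bc204, Gng7 was 1.43 times, Meis2 1.38 times, Pde10a 1.35 times, Adcy5 1.06 times, Gnal 1.014 times and Foxp1 0.885 times the median of the other Fezf2-/- libraries. In bc208, Gng7 was 1.57 times its level in bc209, and the other 5 were 0.983 (Pde10a) to 1.26 times (Adcy5). In normalized reads, the excess of Gng7, Pde10a and Meis2 in bc204 (956 to 1577) was larger than that of any of the 7 genes (29.1 for Rgs9 to 462 for Ppp1r1b).

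Over the 22 genes the median difference in log2(value + 1) was 0.78 for bc204 against the other Fezf2-/- libraries and 1.28 for bc208 against bc209. Over the 7 genes it was 2.10 and 2.12, and over all genes tested 0.0007 and -0.01. Both differences were at least 1 in 5 of the 7 genes, in 9 of the 22, and in 60 of 16197 genes (0.37%). As bc204 and bc208 were picked from the levels of the 7 genes, the first of these counts is no test. Only 22 genes with a mean of at least 50 met this criterion. Of these, 9 were among the 7 genes or the other striatal genes. They include Adora2a, Penk, Tac1, Rarb and Ebf1, from whose levels both libraries were picked, so this count is no test either. The rest of the 9 were other striatal genes, among them Drd2 and Rxrg. The bc208 differences rest on bc209 alone, the lowest library in 5 of the 7 genes, 12 of the 22 and 21.3% of all genes. Against the median of the 7 libraries other than bc204 and bc208, bc208 was 2.26 (Adora2a) to 4.27 times (Tac1) in Adora2a, Penk, Tac1, Rarb and Ebf1. By the same measure bc204 was 4.39 (Adora2a) to 7.96 times (Tac1).

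**Figure D2:**
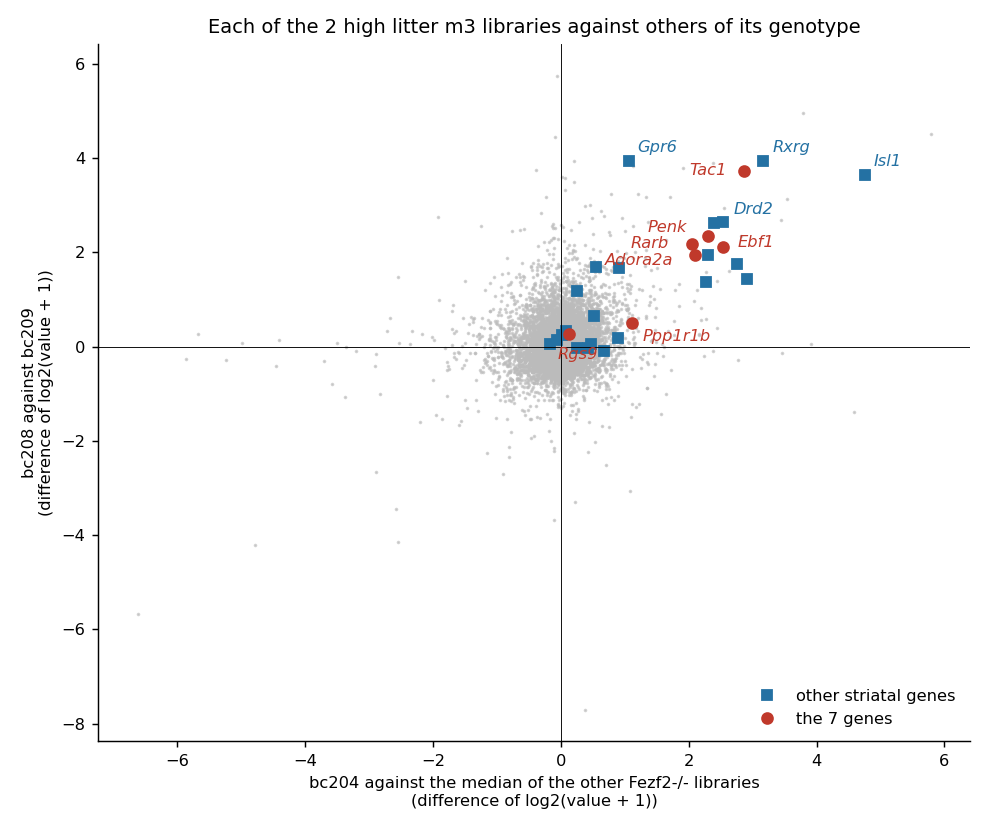
Each point is 1 of 16197 genes, with the difference in log2(value + 1) between bc204 and the median of the other Fezf2-/- libraries on the horizontal axis, and that between bc208 and bc209 on the vertical axis. Adora2a, Penk, Tac1, Rarb and Ebf1 lie at 2.06 to 2.86 and 1.95 to 3.72, among Drd2, Rxrg and Isl1 and away from the bulk of genes, while Ppp1r1b lies at 1.11 and 0.51 and Rgs9 at 0.12 and 0.27.

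The excess in bc208 over bc209 was compared with the excess in bc204 over the median of the other Fezf2-/- libraries, in normalized reads. Its ratio ranged from 0.499 (Adora2a) to 0.682 (Penk) over the 5 genes, with a median of 0.576. Over the 9 other striatal genes that met the criterion above it ranged from 0.273 to 1.58, with a median of 0.504. These 9 were kept for being raised in both libraries, so a positive ratio was fixed in advance. Among the other striatal genes left out by the criterion, the ratio ran from -1.85 (Rasd2) to 10.7 (Gnal). It therefore does not show a proportion shared by striatal genes. Adora2a and Penk of the indirect pathway and Tac1 and Ebf1 of the direct pathway were thus raised in both libraries. The ratio depends on bc209, the 1 library used as baseline for bc208. For Adora2a, Penk, Tac1, Rarb and Ebf1 the excess in bc208 was 141, 184, 158, 195 and 212 over bc209. Over the Fezf2+/+ mean it was smaller, at 105, 152, 135, 172 and 174.

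Markers of other cells that a cortical dissection could hold were summed in each library. Striatal cholinergic neuron genes (6 listed) had 112 in bc204 and 48.8 in bc208, with 18.57 to 26.15 in the rest. Their level was low throughout, and 4 of the 6, among them Chat and Lhx8, were listed at 0 in some libraries. Lhx8 had 34.1 in bc204 and 11.9 in bc208, with at most 3.28 elsewhere. Septal and other ventral forebrain genes in bc204 summed to 130.1% of the median of the other Fezf2-/- libraries, ganglionic eminence progenitor genes to 111%, GABAergic interneuron genes to 105%, meningeal genes to 98.1%, endothelial genes to 94.4%, thalamic neuron genes to 91.2% and cortical projection neuron genes to 90.1%. As percent of bc209, the same lists summed in bc208 to 112%, 100.2%, 103%, 192%, 89.4%, 119% and 81.6%. Several of these lists thus moved with bc204 or bc208. Choroid plexus genes summed to 158% in bc204 and 364% in bc208, at a low level in every library (7.66 to 34.1), with Ttr, Folr1 and Otx2 listed at 0 in some. Septal genes ranged from 332 to 375 in Fezf2+/+, from 361 to 480.1 in Fezf2-/- and from 413 to 461 in Fezf2-/-; Fezf2-EnR, and meningeal genes from 244.5 to 457, from 312 to 529.57 and from 263 to 507. The part of any of these in the levels of the 7 genes was not tested.

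The comparison of Fezf2-/- with Fezf2+/+ asks what loss of Fezf2 does to these genes. With limma on log2(value + 1) and all 9 libraries, 0 of the 7 genes passed an adjusted p of 0.05, where 0.858% of all 16197 genes tested did. Without adjustment, 2 of 7 had a p under 0.05 (Ppp1r1b and Rgs9). Counts of recovered reads gave 0 of 7 with edgeR (0.877% of all genes) and 0 of 7 with DESeq2 (1.94%), each with 2 of 7 at an unadjusted p under 0.05. The median log2 fold change of the 7 genes was 0.60, and that of all genes tested was 0.0002.

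Tac1 had a log2 fold change of 1.15 (SE 0.84, limma adjusted p = 0.686), Rarb of 0.77 (SE 0.57, adjusted p = 0.688) and Adora2a of 0.64 (SE 0.55, adjusted p = 0.731). Without bc204 these were 0.49, 0.25 and 0.14. Ebf1 went from 0.60 to 0.02 and Penk from 0.37 to -0.22. The positive values of these 5 genes in Fezf2-/- therefore rested to a large part on bc204. Within litter m1, where both genotypes were present and neither bc204 nor bc208 takes part, the values were 0.62 for Tac1, 0.44 for Rarb, 0.34 for Ebf1, 0.03 for Adora2a and -0.29 for Penk. None passed the test there.

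The mean level of Ppp1r1b was 960 ± 115 (SD, n = 3) in Fezf2+/+ against 489 ± 255 (SD, n = 4) for Fezf2-/- mice. Its log2 fold change was -1.10 (SE 0.30, limma adjusted p = 0.183). Without bc204, where 0.617% of all genes passed, the log2 fold change was -1.41 (SE 0.19, limma adjusted p = 0.00762), and without bc204 and bc208, where 0.796% of all genes passed, it was -1.41 (SE 0.17, limma adjusted p = 0.00678). Within litter m1 alone, in which 1.44% of genes passed, it was -1.29 (SE 0.09, limma adjusted p = 0.000244). With litter as a block and all libraries, where 0.772% passed, it was -1.30 (SE 0.34, limma adjusted p = 0.166). With the mean log2 level of the 22 other striatal genes as a covariate, where 0.661% passed, it was -1.42 (SE 0.21, limma adjusted p = 0.0155). Ppp1r1b was thus lower in Fezf2-/- in all of these fits. It passed the test only in those that left out bc204 or took account of the other striatal genes. Among Fezf2-/- libraries, bc204 had the highest level of Ppp1r1b (858, against 272 to 431) and of the covariate (8.77). Setting aside the library that departs from its group fixes such a call in large part, so it is no separate support. Of the fits that left out each library in turn, only that without bc204 called Ppp1r1b. The fits without both libraries and with the covariate were chosen after the data were examined.

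**Figure D3:**
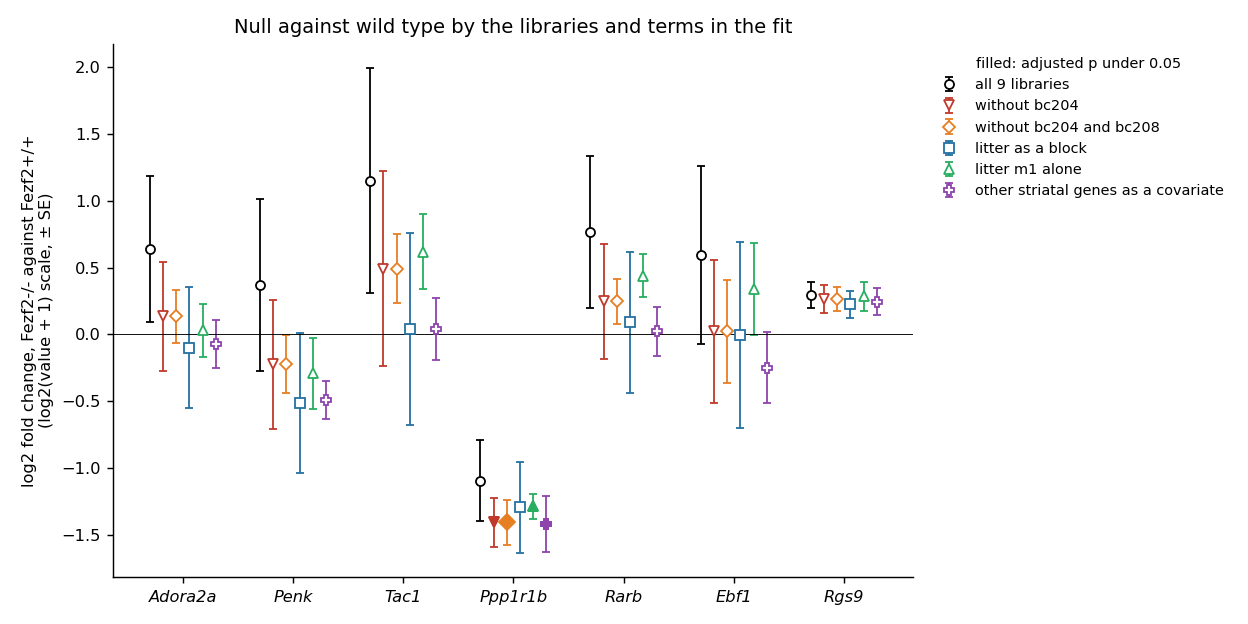
Log2 fold change of the 7 genes in Fezf2-/- against Fezf2+/+ (log2(value + 1) scale, bars are ± SE), for the fit of all 9 libraries and 5 others, with filled markers for an adjusted p under 0.05. Ppp1r1b lies between -1.42 and -1.10 in every fit shown, Rgs9 between 0.22 and 0.30, and Tac1 falls from 1.15 to between 0.04 and 0.62.

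Levels of Ppp1r1b were set beside genes of layer 6 and corticothalamic neurons, since Ppp1r1b is a gene of deep cortical layers too. As percent of the Fezf2+/+ mean, Ppp1r1b stood at 89.4% in bc204 and at 41.2%, 44.9% and 28.3% in the other Fezf2-/- libraries. Foxp2, a transcription factor of layer 6 and also of striatal projection neurons, stood at 82.8% in bc204 and at 35.9%, 29.2% and 21.0% in the others. Both genes stood near wild type levels in bc204 alone among Fezf2-/- libraries, and the cells that gave this RNA were not tested. Tle4, the co-repressor of corticothalamic neurons, Nxph3 and Hs3st4 were low in all 4 Fezf2-/- libraries, bc204 included. In bc204 these stood at 35.5%, 16.0% and 25.3% of the Fezf2+/+ mean, and in the other Fezf2-/- libraries at 29.8% to 36.0%, 12.6% to 17.0% and 24.7% to 26.6%. Syt6, a synaptotagmin of corticothalamic neurons, lay between these patterns, at 50.5% in bc204 and at 32.9%, 32.4% and 21.5% in the others.

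Of the 12 genes listed for layer 6 and corticothalamic neurons, 8 were lower and 0 higher in Fezf2-/- with all libraries, where 0.858% of all genes passed. Foxp2 was not among them (log2 fold change -1.44, SE 0.35, limma adjusted p = 0.123). Without bc204 and bc208 its log2 fold change was -1.83 (limma adjusted p = 0.0017). Ppp1r1b and Foxp2 thus shared the level in bc204. The change of call in both follows in large part from leaving out that library, so it is no second likeness.

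**Figure D4:**
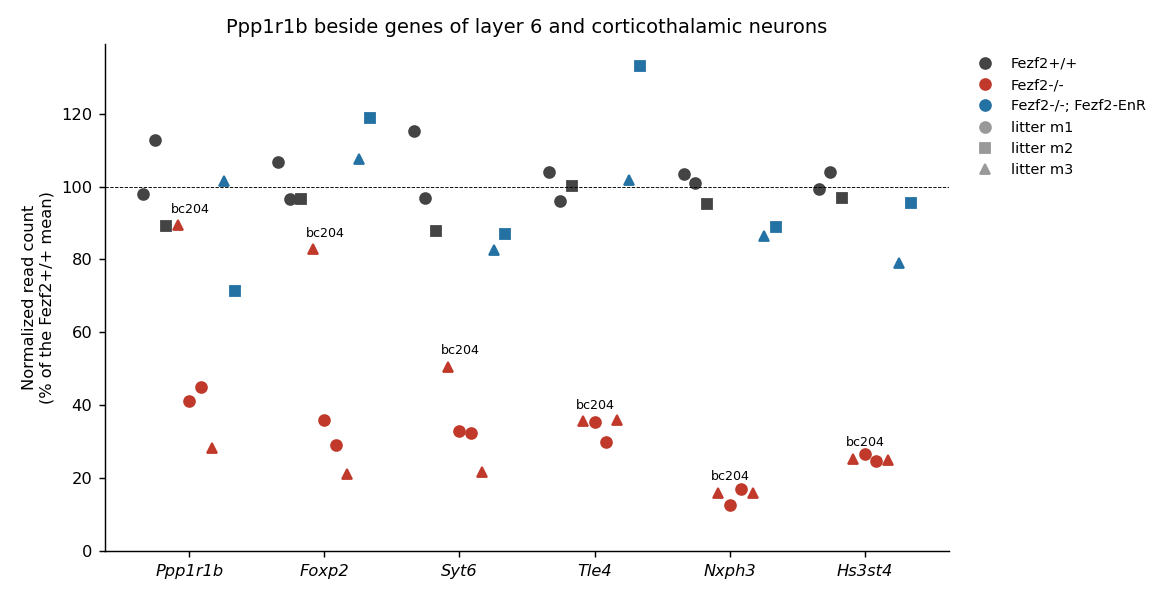
Normalized read count as percent of the Fezf2+/+ mean (axis from 0) for Ppp1r1b and 5 genes of layer 6 and corticothalamic neurons, 1 point per library, with color for genotype and shape for litter. In Ppp1r1b and Foxp2 bc204 stands at 89.4% and 82.8%, apart from the other Fezf2-/- libraries, in Syt6 bc204 stands at 50.5% above the others at 21.5% to 32.9%, and in Tle4, Nxph3 and Hs3st4 the 4 Fezf2-/- libraries lie together.

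The mean level of Rgs9 was 267 ± 7.48 (SD, n = 3) in Fezf2+/+ against 329 ± 24.5 (SD, n = 4) for Fezf2-/- mice. Its log2 fold change was 0.30 (SE 0.10, limma adjusted p = 0.284). The groups did not overlap, which held for 1 of the 7 genes and for 13.0% of all genes tested. An exact two-sided permutation test gave p = 0.0571 for Rgs9 and p = 0.0857 for Ppp1r1b, each 0.60 after adjustment over 21 tests of 7 genes in 3 comparisons. The smallest p that 3 libraries against 4 allow is 0.0286. Rgs9 kept values of 0.22 to 0.30 without bc204, with litter as a block, within litter m1 and with the covariate.

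A comparison of Fezf2-/-; Fezf2-EnR with Fezf2-/- asks whether the transgene moves these genes back. It rests on 2 libraries, and so on a spread shared with the other groups. With limma, 0 of 7 genes passed, where 0.766% of all genes did, and 2 of 7 had an unadjusted p under 0.05 (Ppp1r1b and Rgs9). Again 0 of 7 passed with edgeR (0.704% of all genes, 2 of 7 unadjusted) and with DESeq2 (2.78%, 1 of 7 unadjusted). Ppp1r1b had a log2 fold change of 0.87 (SE 0.34, limma adjusted p = 0.245), and without bc204, where 0.531% of all genes passed, of 1.18 (SE 0.21, limma adjusted p = 0.0499). Without both libraries it was 0.93 (SE 0.24, limma adjusted p = 0.0634). Of the 7 genes 0 passed with litter as a block, where 0.543% of all genes did, and 0 with the covariate, where 0.79% did.

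Rgs9 had a log2 fold change of -0.41 (SE 0.11, limma adjusted p = 0.13) in the same comparison, and of -0.55 (SE 0.13, limma adjusted p = 0.0355) without bc208. In that fit 6.72% of all genes passed, and bc209 stood alone for its genotype. Its groups did not overlap, as in 24.6% of all genes, and the exact permutation p of 0.0667 was the smallest that 2 libraries against 4 allow. Tac1 had -0.78 (SE 0.95, limma adjusted p = 0.718) with all libraries. It passed the test without bc204 and bc208, at -1.98 (SE 0.36, limma adjusted p = 0.0249), where 4.99% of all genes passed and bc209 stood alone for its genotype. That value sets 11 reads of 1 library against the Fezf2-/- libraries and assumes that bc209 varies like the other groups.

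Between Fezf2-/-; Fezf2-EnR and Fezf2+/+, 0 of 7 genes passed with limma, edgeR or DESeq2 and 0 of 7 had an unadjusted p under 0.05, where limma called 0.117% of all genes, edgeR 0.0926% and DESeq2 3.96%. None passed with litter as a block (0.198% of all genes) or without bc204 and bc208 (1.70%). DESeq2 gave no adjusted p for Tac1 in this comparison. The log2 fold changes ran from -0.23 (Ppp1r1b) to 0.59 (Rarb), and without bc204 and bc208 from -1.48 (Tac1) to -0.25 (Rgs9). The direction of Adora2a, Penk, Tac1, Rarb and Ebf1 in this comparison thus turned from positive to negative with bc208. Library bc209 was the lowest of all 9 in 5 of the 7 genes (Adora2a, Penk, Tac1, Rarb and Rgs9) and in 21.3% of all genes tested. No gene of the 7 had groups without overlap here, where 34.6% of all genes did, and the smallest p that 2 libraries against 3 allow in the exact test is 0.1.

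Between litters m3 and m1 within Fezf2-/-, 0 of 7 genes passed with limma, edgeR or DESeq2 and 0 of 7 had an unadjusted limma p under 0.05, where limma called 1.43% of all genes, edgeR 1.49% and DESeq2 1.33%. With edgeR, Penk had an unadjusted p under 0.05. The 7 log2 fold changes were all positive, from 0.06 (Rgs9) to 1.23 (Penk). The litter m3 arm held bc204 and bc207 only. With bc204 alone in it the log2 fold changes of Adora2a, Penk, Tac1 and Rarb were 1.96, 2.39, 2.47 and 1.95, and that of Ppp1r1b was 1.05, which restates the levels of 1 library given above. With bc207 alone in it that of Ppp1r1b was -0.60. In the fit without bc204 and bc208, where 1.93% of all genes passed, Ppp1r1b alone of the 7 genes passed, again from 1 library. The outcome of this comparison thus turned on which of bc204 and bc207 was kept.

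By their median, the 22 other striatal genes followed the same course in Fezf2-/- against Fezf2+/+. With all libraries 0 of 22 passed, with a median log2 fold change of 0.42 and 21 of 22 above 0. Without bc204 and bc208 the median was 0.06 and 15 of 22 were above 0. Gpr6, an orphan receptor of indirect pathway neurons, was highest in each fit and fell little, from 2.20 to 1.97. In the second fit it alone of the 22 passed, where 0.796% of all genes did. All Fezf2-/- libraries of Gpr6 lay above all Fezf2+/+ libraries, as 13.0% of all genes had no overlap between these groups. Its level was low, with 3.16 to 5.26 in Fezf2+/+, 35.15 in bc204 and 14.6 to 24.1 in bc205 to bc207. It was 30.9 in bc208 and 1.09 in bc209. The fold changes of Gpr6 thus rest on few reads.

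Genes that act with each of the 7 were counted in Fezf2-/- against Fezf2+/+. None of 9 opioid and tachykinin peptides and receptors passed, from -0.02 (Oprl1, the nociceptin receptor) to 1.001 (Oprm1, the mu opioid receptor). None of 6 adenosine receptors and handling genes passed, from -0.25 (Slc29a1, a nucleoside transporter) to 0.19 (Nt5e, which makes adenosine). None of 13 DARPP-32 partners passed, from -0.30 (Prkar2b, a subunit of protein kinase A) to 0.11 (Arpp21). None of 6 partners and relatives of Rgs9 passed, from -0.37 (Rgs9bp, its anchor) to 0.59 (Rgs7bp, its other anchor).

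None of 12 retinoic acid pathway genes passed either, from -0.20 (Rarg) to 1.02 (Rbp4). Library bc204 was highest in 6 of the 16 genes listed for that pathway, and in 8.82% of all genes tested. Rarg (187 in both bc204 and bc208, against 139 to 221 elsewhere) did not separate these libraries. Neither did Rbp4 (23.1 and 15.9, against 6.76 to 26.15). Stra6 did (58.25 and 62.72, against 9.83 to 28.33). Rxrg and Crabp1, a retinoic acid binding protein (247 in bc204 and 96.6 in bc208, against 14.2 to 81.7 elsewhere), rose with Rarb in those libraries. Of 5 genes of the EBF family and its partners, 1 passed. Zfp423, a zinc finger partner of EBF proteins, was higher in Fezf2-/- (log2 fold change 0.64, limma adjusted p = 0.0238) and lower in Fezf2-/-; Fezf2-EnR against Fezf2-/- (-0.65, limma adjusted p = 0.0426). With litter as a block neither passed, at 0.56 (limma adjusted p = 0.0615) and -0.57 (limma adjusted p = 0.107).

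Across the 9 libraries, the genes most like the mean of the 7 in standardized log2 level were Drd2 (Pearson's r = 0.98), Rxrg (0.97), Strip2 (0.96), Crabp1 (0.95), Pde7b (0.95), Klhl13 (0.94), Fam102a (0.94) and Nexn (0.92). These r values describe 9 libraries of which bc204 and bc208 stand apart, and rest largely on them. Drd2 was also closest to Adora2a, Tac1 and Rarb (r = 0.97, 0.98 and 0.99), Strip2 to Penk (0.97) and Nexn to Ebf1 (0.99). Rgs9 had different neighbours, Tmem255a (0.97) and Zfp423 (0.95), and Ppp1r1b was closest to 2310039H08Rik (0.98) and to Shb (0.97), an adaptor protein. Shb had 484 to 570.2 in Fezf2+/+, 417 in bc204 and 268 to 329 in the other Fezf2-/- libraries.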

How the data were processed

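Total RNA of dissected cortex was extracted per mouse, and polyA libraries were sequenced. The submitters' processing notes name Bowtie, STAR, DESeq and mm10, and versions and the use of strand are not given in the sources used here. The deposited signal values are read counts that the authors divided by a size factor per library. Whole reads were recovered in all 9 libraries (100.0% of values were whole multiples, tolerance 0.1).

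Groups and litters came from the labels. The main test was limma 3.58.1 in R 4.3.3 (trend) on log2(value + 1) in 1 fit of 9 libraries, for 16197 genes with a mean of at least 10, with Benjamini-Hochberg adjustment over all of them. Fold changes on this scale understate those of low genes. edgeR 4.0.16 and DESeq2 1.42.0 were run on recovered reads. Single genes were compared by exact two-sided permutation tests. Scripts were tested on simulated data. Litters were not shared evenly by genotypes. Replicates were separate mice.

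Genes named were the 7 genes, the members of listed pathways and cell types with the lowest and highest values or a call, and the genes most correlated with each of the 7. The 7 genes and the lists were chosen with earlier results of these data known. Gene positions came from GENCODE M21 (24595 of 24624 identifiers matched) and promoter windows from RefSeq, both on GRCm38. Alternatives changed the pseudocount, filter, scaling, samples in the fit, tool and litter term, and left out each library in turn. 1 gene of the lists is not reported by name.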

Additional observations from a re-analysis of the deposited data

Results flagged for a closer look

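Within the 4 Fezf2-/- libraries, the highest or lowest value was set against the range of the group by Dixon's criterion for 30 genes and summed lists. Chance alone flags about 1 in 20 groups. Library bc204 stood apart for Adora2a (368), Penk (337), Tac1 (317) and Rarb (394), in normalized read counts. It also stood apart for the summed level of the 7 genes (3121), of the other striatal projection neuron genes (35621), of the striatal cholinergic neuron genes (112) and of the retinoic acid pathway genes (4160). The flags on these genes and lists all come from 1 library and are not independent. Some lists also share genes. Rxrg is in both the retinoic acid list and the list of other striatal genes. Its excess in bc204 over the median of the other Fezf2-/- libraries was 574, where those libraries summed to 3119 to 3199 for the retinoic acid list. Library bc205 stood apart for the summed level of pericyte and mural genes (4582), a list apart from the 7 genes.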

How the results depend on the processing

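The number of genes called in Fezf2-/- against Fezf2+/+ was 139, with 221 for only the groups compared, 233 for litter m1 alone, 315 with DESeq2 and 66 to 217 with 1 library left out. For Fezf2-/-; Fezf2-EnR against Fezf2-/- it was 124, with 67 for only the groups compared, 450 with DESeq2, 809 without bc204 and bc208 and 21 to 1088 with 1 library left out. In Fezf2-/-; Fezf2-EnR against Fezf2+/+ it was 19, with 10 at a mean of at least 50, 12 for only the groups compared, 32 with litter as a block, 641 with DESeq2, 276 without both and 8 to 491 with 1 library left out. Between litters it was 231, with 22 under no filter, 58 for only the groups compared and 55 to 312 with 1 library left out. The cause was not tested.

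Log2 fold changes turned sign as follows. In Fezf2-/- against Fezf2+/+, Adora2a, Penk and Ebf1 were -0.10, -0.51 and -0.0040 with litter as a block and -0.072, -0.49 and -0.25 with the striatal covariate, and Penk was -0.29 in litter m1 and -0.22 without bc204 and bc208. In Fezf2-/-; Fezf2-EnR against Fezf2+/+, Adora2a, Penk and Tac1 were -0.20, -0.26 and -0.25 with the block, Adora2a, Penk, Tac1 and Ebf1 were -0.27, -0.18, -0.37 and -0.18 with the covariate, and Adora2a, Penk, Tac1, Rarb and Ebf1 were -0.77, -0.78, -1.48, -0.50 and -0.67 without both. In Fezf2-/-; Fezf2-EnR against Fezf2-/-, Ebf1 was 0.14 with the block and 0.074 with the covariate, Rarb 0.066 with the covariate and Penk -0.56 without both. Between litters, Adora2a, Tac1, Ppp1r1b, Rarb and Ebf1 were -0.15, -0.49, -0.60, -0.40 and -1.12 without both, and Tac1, Ppp1r1b, Rarb and Ebf1 were -0.21, -0.36, -0.11 and -0.89 with the covariate.

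With 1 library left out, Penk ran from -0.22 to 0.72 in Fezf2-/- against Fezf2+/+. For Fezf2-/-; Fezf2-EnR against Fezf2-/-, Adora2a ran from -1.40 to 0.55, Penk from -1.15 to 1.21, Tac1 from -2.63 to 1.08, Rarb from -1.26 to 0.91 and Ebf1 from -1.26 to 0.86. For Fezf2-/-; Fezf2-EnR against Fezf2+/+, Adora2a ran from -0.77 to 1.19, Penk from -0.78 to 1.57, Tac1 from -1.48 to 2.23, Ppp1r1b from -0.48 to 0.026, Rarb from -0.50 to 1.68, Ebf1 from -0.67 to 1.45 and Rgs9 from -0.25 to 0.020. Between litters, Adora2a ran from -0.15 to 1.96, Tac1 from -0.49 to 2.47, Ppp1r1b from -0.60 to 1.05, Rarb from -0.40 to 1.95, Ebf1 from -1.12 to 1.91 and Rgs9 from -0.044 to 0.17.

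Mice were matched across genotypes by litter only, and the fit with litter as a block is the matched one. Leaving out both libraries and the covariate were chosen after seeing the data, and without bc208 the lone library of its genotype is assumed to vary like the other groups. A litter block could not be fitted to the comparison between litters.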
